A study of Mus musculus with 9 samples.

Results

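Imprinted genes are expressed mainly or only from the copy inherited from one parent. The 35 genes described here are imprinted genes of the mouse other than those of the H19-Igf2 locus. They were listed by name, with earlier results of these data known, and each name matched exactly 1 of the 47729 gene rows of the deposited files. By background knowledge, 21 of them are expressed from the paternal copy and 13 from the maternal copy, while Gnas uses both according to promoter and tissue. Of the 13, Ppp1r9a, Asb4, Blcap, Copg2 and Grb10 are imprinted only in some tissues or isoforms. The cells were myoblasts, the dividing precursors of muscle fibres, from skeletal muscle of the inbred strain FVB/N. The labels gave 3 populations with 3 libraries each: SRCs of cycle 3 (SRC3) and FRCs of cycle 1 (FRC1), which are reserve cell populations, and the Parental cells (PAR). All SRC libraries are of cycle 3 and all FRC libraries of cycle 1, so kind of reserve cell and cycle cannot be told apart. Reserve cells are the mononucleated cells that stay undifferentiated when a myoblast culture forms myotubes. After isolation the SRC3 and FRC1 cells went through 2 passages in growth conditions before their RNA was taken. No treatment, transgene or edited allele was named for any group, and all groups share the strain. In an inbred strain both parental copies have the same sequence, so each count is the sum over both, and the expressed copy named for a gene is background and was not measured.

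Imprinting rests on DNA methylation laid down in the germ line at control regions and kept through every cell division. Such regions govern clusters, in which a gene of one parental copy is often set against a neighbour or a long non-coding RNA of the other. Many paternally expressed genes promote fetal growth and many maternally expressed ones restrain it, and several, among them Peg3, Mest, Dlk1 and Plagl1, are known from muscle development and regeneration.

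The libraries held 13012996 to 14336279 gene counts, so that 3 counts in a library equalled 0.21 to 0.231 CPM (the usual CPM scale, on gene counts of the library times its TMM factor). On the first principal component of the tested genes SRC3 was separated from FRC1 and PAR. Of 7 myoblast markers, 6 were tested, and 5 were lower in SRC3 than in PAR. Their summed level was 1856 to 2055 CPM in SRC3, 2681 to 2737 CPM in FRC1 and 2789 to 2873 CPM in PAR. Myod1 and Pax7 were well expressed in all libraries, while Myf5, another defining marker, had 1 read in SRC3 and 0 in FRC1 and PAR. Markers of differentiating muscle summed to 8.35 to 19.7 CPM in SRC3, 71.3 to 86.7 CPM in FRC1 and 8.87 to 11.7 CPM in PAR. By log2 fold change in SRC3 against PAR, Myog (1.46), Myh3 (1.24) and Acta1 (1.91) were called higher and Tmem8c (-2.11) lower. Tnnt3 was not called there. The 7 fibroblast markers summed to 5.54 to 7.69, 4.77 to 5.60 and 7.83 to 8.24 CPM in the same groups, and Lum was at 0. The 5 pericyte and smooth muscle markers summed to 54.7 to 66.9 CPM in SRC3, 178.3 to 242.5 CPM in FRC1 and 64.1 to 74.1 CPM in PAR. These sums hide opposite changes in SRC3: Cspg4 was at 52.3 CPM in SRC3 and 0.694 CPM in PAR (log2 change of 6.21, SE 0.36; edgeR adjusted p = 1.35e-06), and Acta2 at 8.58 CPM in SRC3 and 67.1 CPM in PAR (-2.97, SE 0.35; edgeR adjusted p = 0.000674). In FRC1 both were called higher than in PAR, Cspg4 at 7.81 CPM and Acta2 at 199.2 CPM. Endothelial, blood, glial and adipocyte markers each summed to at most 5.35 CPM in any library, and Kdr, Emcn, Adgre1, Tyrobp, S100b, Sox10 and Plin1 were at 0. The part of these differences in the results below was not tested, and in bulk RNA fewer cells of a type and less RNA per cell cannot be told apart. The labels do not say that replicates were separate cultures, so each p-value measures only how far these libraries vary, and that variation may be technical.

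The sequences below are RefSeq promoter windows on GRCm38.p6, 300 bases each that span a start of the gene in RefSeq, read 5′ to 3′ on its strand. For Ndn and Mest that start lies inside the gene as the GENCODE annotation draws it, downstream of the outermost start from which distances below are counted. They belong to the members whose levels moved most or moved as a pair: Peg12 and Ndn, the neighbours whose reads nearly vanished in SRC3, Peg3, whose window overlaps that of Usp29, and Mest, of whose 3 windows the first of the 2 that share the most CpGs is shown. Capitals mark CpG dinucleotides, the sites at which imprints are carried.
Peg12, chr7:62464461-62464760, minus strand: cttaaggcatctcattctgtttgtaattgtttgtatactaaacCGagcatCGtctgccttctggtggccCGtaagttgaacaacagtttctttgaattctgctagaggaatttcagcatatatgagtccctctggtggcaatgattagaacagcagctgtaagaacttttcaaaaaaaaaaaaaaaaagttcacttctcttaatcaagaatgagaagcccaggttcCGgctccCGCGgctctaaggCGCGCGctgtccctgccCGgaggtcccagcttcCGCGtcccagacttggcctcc
Ndn, chr7:62348027-62348326, plus strand: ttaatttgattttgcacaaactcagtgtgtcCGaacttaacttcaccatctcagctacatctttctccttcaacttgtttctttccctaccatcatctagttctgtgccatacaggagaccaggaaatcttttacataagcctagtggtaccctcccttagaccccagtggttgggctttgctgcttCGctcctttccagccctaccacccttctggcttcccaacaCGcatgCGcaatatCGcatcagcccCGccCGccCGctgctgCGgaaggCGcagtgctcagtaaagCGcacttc
Peg3, chr7:6730370-6730669, minus strand: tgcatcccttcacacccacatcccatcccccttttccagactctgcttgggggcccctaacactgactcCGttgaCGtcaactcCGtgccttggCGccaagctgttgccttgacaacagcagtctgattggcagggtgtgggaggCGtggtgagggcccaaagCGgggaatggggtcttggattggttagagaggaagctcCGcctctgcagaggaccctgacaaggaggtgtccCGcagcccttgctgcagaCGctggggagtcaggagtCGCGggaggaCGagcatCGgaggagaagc
Mest, chr6:30737800-30738099, plus strand: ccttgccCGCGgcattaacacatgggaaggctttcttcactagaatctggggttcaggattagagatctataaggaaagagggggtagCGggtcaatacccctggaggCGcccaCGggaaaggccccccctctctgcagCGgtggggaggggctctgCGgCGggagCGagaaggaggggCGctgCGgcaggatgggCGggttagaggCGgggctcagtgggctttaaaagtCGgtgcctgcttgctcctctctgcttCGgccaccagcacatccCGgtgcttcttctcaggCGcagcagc

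These windows held 12 CpGs in Peg12, 11 in Ndn, 13 in Peg3 and 17 in Mest, against a median of 7 over 32851 windows. The 6 letters TGCCGC, the core recognised by the imprint-keeping zinc finger protein ZFP57 when methylated, were searched on both strands and occurred 2 times in the Mest window and 0 times in the other 3, where 11.6% of all windows held them. The E-box letters CAGCTG, bound by MyoD-type factors, occurred 1 time in the Peg12 window, and 16.3% of all windows held them. Such matches describe the letters of a window and are not binding sites. Methylation was not measured.

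An intron-borne microRNA, miR-335, lies within Mest on the same strand (chromosome 6, 30741299 to 30741396, GRCm38.p6), and its mature forms are shown with the seed, bases 2 to 8, in capitals because they share the primary transcript of the gene.
mmu-miR-335-5p: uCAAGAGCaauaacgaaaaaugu
mmu-miR-335-3p: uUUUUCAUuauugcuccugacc
The seeds of the 2 arms differ. Mature microRNAs are not captured in libraries of polyadenylated RNA, so no level is given for either.

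Of the 35 members, 20 had enough counts to be tested and 18 reached a mean of 1 CPM in at least 1 population. Of the 21 paternally expressed members 14 were tested, and of the 13 maternally expressed ones 5. Counts of all 12540 tested genes from all 9 libraries were fitted together, and a gene was called at a Benjamini-Hochberg adjusted p under 0.05 in edgeR's quasi-likelihood test. Both reserve populations were compared with the same PAR libraries, so their differences from PAR are not independent of each other.

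In SRC3 against PAR 13 of the 20 tested members were called, beside 37.9% of all tested genes: 10 were lower (20.2% of all tested genes) and 3 higher (17.8%). In FRC1 against PAR 10 were called, beside 28.3% of all tested genes: 9 were lower (14.7%) and 1 higher (13.6%). SRC3 against FRC1 gave 10 called members, beside 33.5% of all tested genes: 7 were lower (18%) and 3 higher (15.5%). Counted by libraries that did not overlap, 9 tested members lay lower and 3 higher in SRC3 than in PAR (25.5% and 23.7% of all tested genes), 8 and 1 in FRC1 than in PAR (22.4% and 21.8%), and 8 and 5 in SRC3 than in FRC1 (22.9% and 19.9%). The median log2 fold change of the tested members was -0.37, -0.29 and -0.08 in these 3 comparisons, and that of all tested genes 0.01, 0.00 and 0.00. The members were chosen with earlier results of these data known, and whether they differ from other genes was not tested. Ndn and Cdkn1c passed the filter on low counts only through PAR. Of the other 18 members, 9 were lower in SRC3 than in PAR, 8 in FRC1 than in PAR and 6 in SRC3 than in FRC1, with median log2 fold changes of -0.35, -0.21 and -0.09. The 9 lower members in FRC1 were 4 without FRC1 replicate 2, 5 without FRC1 replicate 3 or PAR replicate 2, and 6 without SRC3 replicate 1, PAR replicate 1 or PAR replicate 3.

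By expressed copy, and without Ndn and Cdkn1c, 8 of 13 tested paternally expressed members were lower in SRC3 than in PAR and 2 higher, while of 4 tested maternally expressed members 0 were lower and 1 higher. FRC1 against PAR gave 6 lower and 0 higher among the 13, and 2 lower and 1 higher among the 4. Between SRC3 and FRC1 4 of the 13 were lower and 1 higher, and of the 4 maternally expressed members 1 was lower and 2 higher. Among all tested genes, 20.2% were called lower and 17.8% higher when SRC3 was set beside PAR. For FRC1 beside PAR these shares were 14.7% and 13.6%. Between the reserve populations, SRC3 had 18% of genes lower and 15.5% higher. With 4 members, the maternally expressed kind is too small for its counts to show a contrast with the other. Of these 4, Copg2, Blcap and Ppp1r9a are imprinted only in some tissues or isoforms. Whether they were imprinted in these cells was not measured. Whether the 2 kinds of member differ was not tested. The summed level of the 21 paternally expressed members was 1255, 1215 and 1572 CPM in SRC3, 1738, 1481 and 1623 CPM in FRC1, and 2171, 2087 and 2357 CPM in PAR. All 6 reserve libraries lay below all PAR libraries. Peg3 made up most of this sum, and without it the means were 412.6 CPM in SRC3, 576.4 CPM in FRC1 and 766.1 CPM in PAR. The 13 maternally expressed members summed to 179, 176.6 and 199.5 CPM in SRC3, 166.3, 165.1 and 165.1 CPM in FRC1, and 193.8, 188.3 and 212.6 CPM in PAR. For these the SRC3 and PAR libraries overlapped, and FRC1 lay below both. Zim1, Blcap and Copg2 made up most of this sum, with means of 60.0, 55.5 and 54.2 CPM in SRC3. The sum is therefore not a measure of output from the maternal copy. These sums weigh members by their abundance and were not tested.

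**Figure D1:**
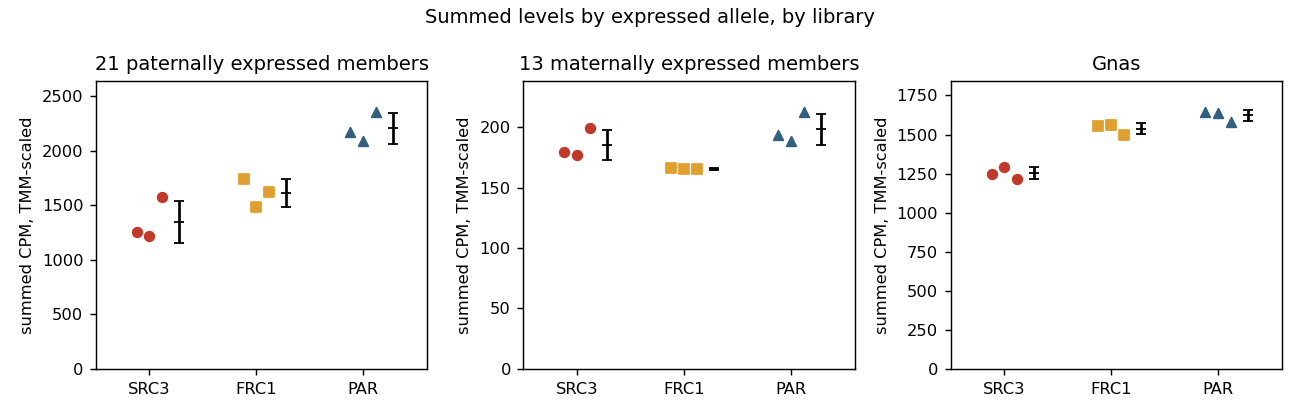
Summed CPM (TMM-scaled, axis from 0) of the 21 paternally expressed members, the 13 maternally expressed members and Gnas in each library of SRC3, FRC1 and PAR; black bars are the mean and SD of 3 libraries. The paternally expressed sum averaged 1347 CPM in SRC3, 1614 CPM in FRC1 and 2205 CPM in PAR. The maternally expressed sum includes Blcap, Copg2 and Ppp1r9a, which are imprinted only in some tissues or isoforms.

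Per kilobase of annotated exon, Gnas and Peg3 were the most abundant members in every population. Gnas stood at 111.9 CPM per kilobase in SRC3, 137.4 in FRC1 and 145.0 in PAR, and Peg3 at 70.2, 77.9 and 108.0. In FRC1 and PAR Mest and Plagl1 came next, with 38.3 and 21.8 CPM per kilobase in FRC1 and 52.1 and 31.0 in PAR. In SRC3 Mest had 7.58 CPM per kilobase, below Blcap (18.2), Impact (17.9), Peg10 (14.6), Plagl1 (14.5) and Copg2 (10.6). Exon length was the union over all annotated transcripts, which overstates the length of genes with many isoforms. Peg10 and Plagl1 in SRC3 were at nearly the same level, and their libraries overlapped.

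**Figure D2:**
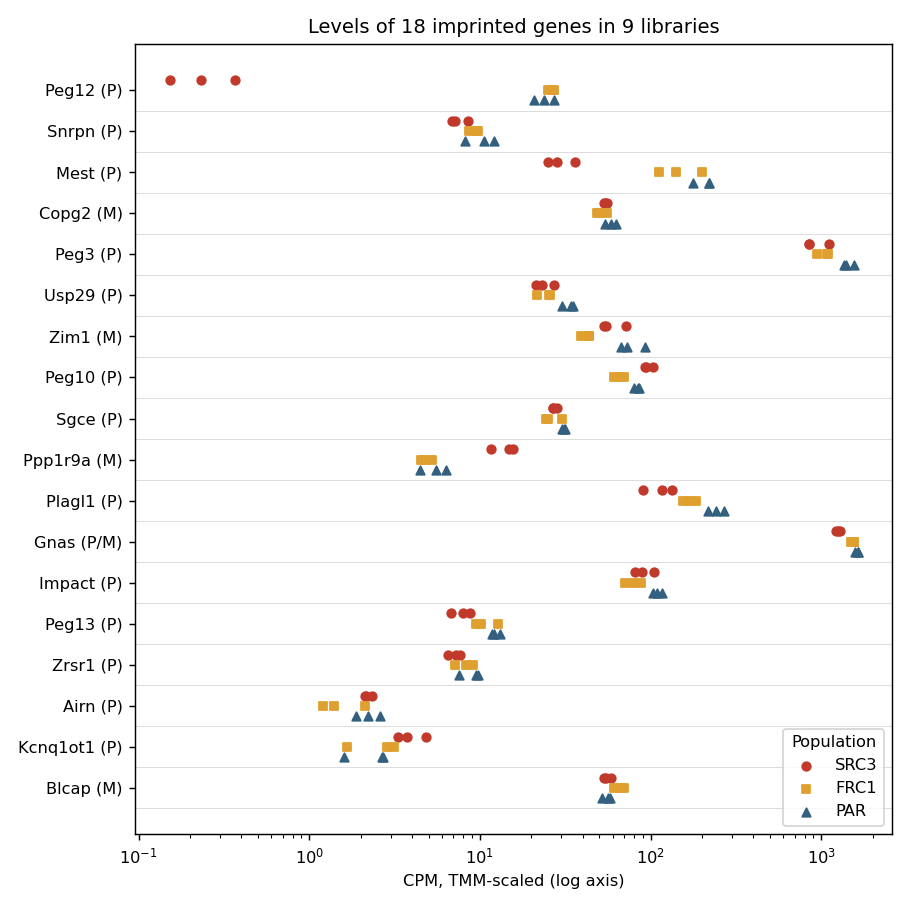
Level of each of the 18 members with at least 1 CPM, in CPM (TMM-scaled) on a log axis, in the 9 libraries; P and M give the expressed copy. Peg12 in SRC3 lies between 0.152 and 0.366 CPM, while its FRC1 and PAR libraries lie between 20.9 and 27.2 CPM.

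The Prader-Willi region on chromosome 7 holds a row of paternally expressed genes. Peg12, an intronless gene of the Frat family of GSK3-binding proteins (ENSMUSG00000070526, GRCm38 chromosome 7, 62461871 to 62464510, minus strand), showed the largest change of the 18 members at 1 CPM or more. It had 0.366, 0.231 and 0.152 CPM in SRC3, 27.0, 26.6 and 25.1 CPM in FRC1, and 27.2, 23.7 and 20.9 CPM in PAR. In reads, 10 were counted over the 3 SRC3 libraries, 1089 over FRC1 and 993 over PAR. Every SRC3 library lay far below the other 6, and FRC1 and PAR overlapped. The log2 fold change was -6.52 in SRC3 against PAR (SE 0.22; edgeR adjusted p = 5.94e-15), a 92.0-fold fall, and -6.65 in SRC3 against FRC1 (SE 0.21; edgeR adjusted p = 2.81e-15). In FRC1 against PAR it was 0.13, with a 95% interval of -0.07 to 0.33 (edgeR adjusted p = 0.339).

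Ndn encodes necdin, a MAGE family protein that restrains the cell cycle and promotes myogenic differentiation (chromosome 7, 62346569 to 62350262, plus strand), and starts 117941 bases from the start of Peg12. It had 0 reads in SRC3, 15 over the FRC1 libraries and 37 over PAR. With 3 counts taken as the floor for all 3 SRC3 libraries together, its level in SRC3 was at least 11.8-fold lower than in PAR and at least 4.79-fold lower than in FRC1. Both differences were called (edgeR adjusted p = 2.62e-05 and 0.00197), but Ndn had passed the filter only through PAR, where it is highest. FRC1 was also called lower than PAR (edgeR adjusted p = 0.0354), a call lost without FRC1 replicate 2, FRC1 replicate 3 or any 1 of the PAR libraries, and under DESeq2. Without the filter that call was lost as well. With SRC3 and FRC1 alone in the fit, Ndn did not pass the filter and was not tested.

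Between Ndn and Peg12 lie Magel2, another MAGE gene, which had 0 reads in all 9 libraries, and Mkrn3, a makorin RING finger gene that is not a member. Mkrn3 starts 44371 bases from Peg12 and had 8, 10 and 9 reads in SRC3, 30, 41 and 33 in FRC1, and 25, 31 and 34 in PAR. Its log2 fold change was -1.67 in SRC3 against PAR (SE 0.29; edgeR adjusted p = 0.000143) and -1.87 against FRC1 (SE 0.29; edgeR adjusted p = 3.56e-05). It was the only tested non-member gene that started within 250000 bases of Peg12.

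Snrpn, the gene of the spliceosomal protein SmN, starts 2324291 bases from Peg12 (chromosome 7, 59982495 to 60140219, minus strand). Its level was 8.50, 6.86 and 7.14 CPM in SRC3, 9.77, 9.65 and 8.69 CPM in FRC1, and 12.03, 10.63 and 8.17 CPM in PAR. SRC3 and PAR overlapped by 1 library. The log2 fold change in SRC3 against PAR was -0.45 (SE 0.15; edgeR adjusted p = 0.0182), against -6.52 for Peg12. That call was lost without SRC3 replicate 2 (edgeR adjusted p = 0.0614), PAR replicate 1 (0.138) or PAR replicate 2 (0.0594), ranging over 0.00354 to 0.138 across 17 alternatives. Snrpn did not pass in FRC1 against PAR (log2 fold change -0.13, 95% interval -0.42 to 0.16) or in SRC3 against FRC1 (-0.32, -0.62 to -0.01; edgeR adjusted p = 0.103). The ratio of Peg12 to Snrpn reads was 0.0327 ± 0.0110 in SRC3, 2.80 ± 0.0723 in FRC1 and 2.35 ± 0.180 in PAR (SD, n = 3 each). Snrpn overlaps Snurf, which had 0 reads, so reads that lie in both genes may be missing from the count.

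**Figure D3:**
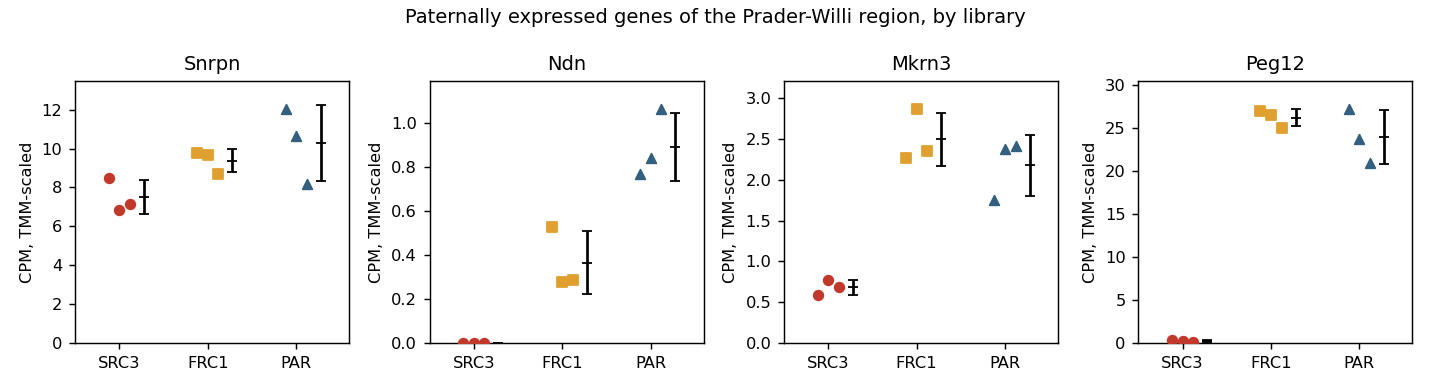
CPM (TMM-scaled, axes from 0) of Snrpn, Ndn, Mkrn3 and Peg12 in each library of SRC3, FRC1 and PAR; black bars are the mean and SD of 3 libraries. Ndn, Mkrn3 and Peg12 are lowest in all 3 SRC3 libraries, with Ndn at 0, whereas Snrpn in SRC3 (6.86 to 8.50 CPM) overlaps PAR (8.17 to 12.03 CPM).

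Mest encodes an alpha/beta hydrolase-fold protein of mesodermal tissues (ENSMUSG00000051855, chromosome 6, 30723547 to 30748465, plus strand). It had 28.4, 25.0 and 36.3 CPM in SRC3, 200.0, 112.0 and 141.0 CPM in FRC1, and 219.1, 176.9 and 220.0 CPM in PAR. The SRC3 libraries lay below all others, whereas FRC1 replicate 1 lay within the range of PAR, the FRC1 library that was also nearest to PAR on the second principal component. Mest was 6.87-fold lower in SRC3 than in PAR (log2 change of -2.78, SE 0.27; edgeR adjusted p = 0.000256) and 5.04-fold lower than in FRC1 (-2.33, SE 0.27; edgeR adjusted p = 0.00073). In FRC1 against PAR it did not pass (log2 fold change -0.45, 95% interval -1.002 to 0.11; edgeR adjusted p = 0.211). Without FRC1 replicate 1 the value was -0.70 and passed (edgeR adjusted p = 0.0226; 0.0226 to 0.404 across 17 alternatives).

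Copg2, a coatomer subunit gene of vesicle transport, runs towards Mest from the other side and overlaps its end by 912 bases. It had 54.2, 53.2 and 55.3 CPM in SRC3, 56.0, 48.9 and 49.7 CPM in FRC1, and 63.0, 58.4 and 54.5 CPM in PAR. All 3 groups overlapped. Copg2 did not pass in SRC3 against PAR (log2 fold change -0.11, 95% interval -0.25 to 0.03). In FRC1 against PAR it was called at -0.19 (SE 0.07; edgeR adjusted p = 0.044). That call was lost with library sizes alone (0.0594), under DESeq2 (0.0738) and without SRC3 replicate 1 (0.0522), FRC1 replicate 2 (0.148), FRC1 replicate 3 (0.151), PAR replicate 1 (0.217) or PAR replicate 2 (0.0823), as adjusted p, ranging over 0.0115 to 0.217 across 17 alternatives. The ratio of Mest to Copg2 reads was 0.550 ± 0.0957 in SRC3, 2.90 ± 0.643 in FRC1 and 3.52 ± 0.506 in PAR (SD, n = 3 each). The other tested genes that start within 250000 bases of Mest were Cep41, with a log2 fold change of -0.08 in SRC3 against PAR (edgeR adjusted p = 0.551), and Tmem209, with 0.16 (edgeR adjusted p = 0.0257).

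In the Peg3 cluster on chromosome 7, Peg3 and Usp29 start 147 bases apart and run in opposite directions. Their promoter windows share 263 of 300 bases, so the Peg3 sequence printed above is largely that of Usp29 on the other strand. Peg3 encodes a large zinc finger protein studied in muscle stem cells, and Usp29 a ubiquitin-specific protease. Zim1, a maternally expressed zinc finger gene, starts 33981 bases from Peg3 on its other side.

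Peg3 (chromosome 7, 6703892 to 6730431) had 845.6, 849.1 and 1109 CPM in SRC3, 1098, 940.1 and 1075 CPM in FRC1, and 1407, 1359 and 1550 CPM in PAR. Both reserve populations lay below PAR in every library and overlapped each other. Its log2 fold change was -0.62 in SRC3 against PAR (SE 0.11; edgeR adjusted p = 0.00248) and -0.47 in FRC1 against PAR (SE 0.11; edgeR adjusted p = 0.0148). The FRC1 call was lost without FRC1 replicate 2 (edgeR adjusted p = 0.0527; 2.74e-05 to 0.0527 across 17 alternatives). SRC3 and FRC1 differed by -0.15, with a 95% interval of -0.41 to 0.11, but by -0.29 without SRC3 replicate 3, the highest SRC3 library (edgeR adjusted p = 0.00335; 0.00335 to 0.716 across 17 alternatives).

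Usp29 had 23.2, 21.3 and 27.2 CPM in SRC3, 25.4, 21.6 and 25.7 CPM in FRC1, and 34.3, 30.4 and 35.3 CPM in PAR. For Usp29 as for Peg3, SRC3 replicate 3 and PAR replicate 3 were the highest of their groups and FRC1 replicate 2 the lowest. Its log2 fold changes were -0.48 in SRC3 against PAR (SE 0.10; edgeR adjusted p = 0.000468) and -0.46 in FRC1 against PAR (SE 0.09; edgeR adjusted p = 0.00114). The ratio of Usp29 to Peg3 reads was 0.0257 ± 0.00156 in SRC3, 0.0233 ± 0.000492 in FRC1 and 0.0232 ± 0.00106 in PAR (SD, n = 3 each).

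Zim1 had 53.4, 54.5 and 72.2 CPM in SRC3, 43.8, 39.3 and 43.6 CPM in FRC1, and 73.0, 66.9 and 93.02 CPM in PAR. FRC1 lay below both other groups, and SRC3 replicate 3 lay within PAR. Zim1 was lower in FRC1 than in PAR, with a log2 fold change of -0.88 (SE 0.15; edgeR adjusted p = 0.00289). In SRC3 against PAR it was -0.37 (SE 0.15) and did not pass (edgeR adjusted p = 0.0793), but it passed at -0.52 without SRC3 replicate 3 (0.00594), at -0.46 without PAR replicate 2 (0.0374) and with the replicate block (0.000388), ranging over 0.000388 to 0.252 across 17 alternatives. SRC3 was higher than FRC1 by 0.51 (SE 0.16; edgeR adjusted p = 0.0345). This last call was lost without SRC3 replicate 2 (0.0561), SRC3 replicate 3 (0.0561), FRC1 replicate 1 (0.0872), FRC1 replicate 2 (0.113) or FRC1 replicate 3 (0.0623), as edgeR adjusted p, ranging over 3.47e-05 to 0.113.

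The ratio of Zim1 to Peg3 reads removes what the 2 genes share within a library. It was 0.0632, 0.0642 and 0.0651 in SRC3, 0.0399, 0.0418 and 0.0405 in FRC1, and 0.0519, 0.0493 and 0.0600 in PAR. The 3 groups did not overlap, and SRC3 was highest and FRC1 lowest. This ratio was not tested.

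**Figure D4:**
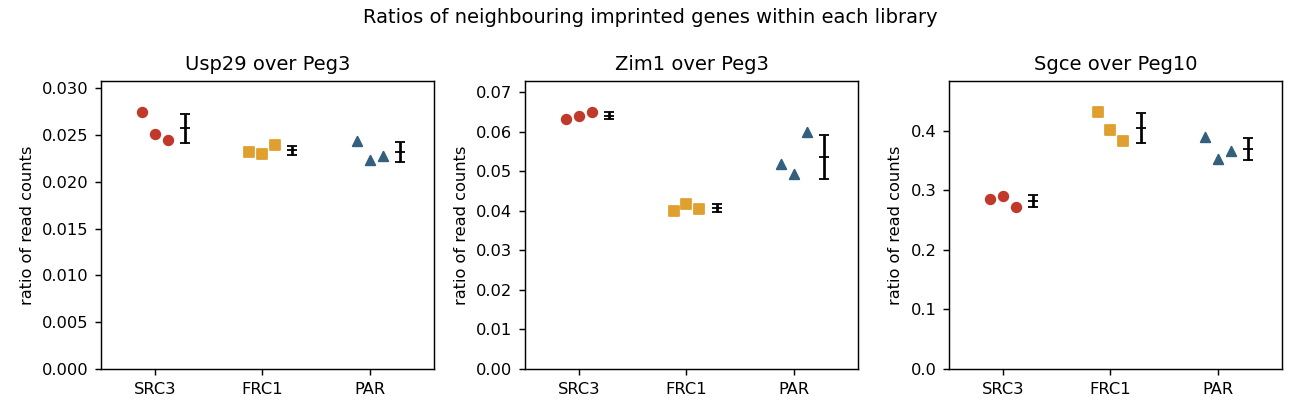
Ratio of read counts of neighbouring imprinted genes in each library (axes from 0) of SRC3, FRC1 and PAR: Usp29 over Peg3, Zim1 over Peg3 and Sgce over Peg10; black bars are the mean and SD of 3 libraries. Zim1 over Peg3 is highest in SRC3 (0.0632 to 0.0651) and lowest in FRC1 (0.0399 to 0.0418), and Sgce over Peg10 is lowest in SRC3 (0.271 to 0.290).

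A second pair of paternally expressed genes that run apart from neighbouring starts, Peg10 and Sgce on chromosome 6, start 99 bases apart. Peg10 is derived from a retrotransposon and is needed in placenta, and Sgce encodes epsilon-sarcoglycan, a membrane protein of the dystrophin-associated complex. Peg10 had 94.6, 92.6 and 103.9 CPM in SRC3, 70.0, 60.8 and 65.2 CPM in FRC1, and 80.4, 85.7 and 85.0 CPM in PAR. The 3 groups did not overlap: SRC3 was highest and FRC1 lowest. Peg10 was higher in SRC3 than in PAR by 0.21 on the log2 scale (SE 0.06; edgeR adjusted p = 0.00912) and lower in FRC1 than in PAR (-0.36, SE 0.06; edgeR adjusted p = 0.000286). SRC3 exceeded FRC1 by 0.57 (SE 0.06; edgeR adjusted p = 4.82e-07).

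Sgce had 27.0, 26.9 and 28.2 CPM in SRC3, 30.2, 24.4 and 24.9 CPM in FRC1, and 31.3, 30.1 and 31.2 CPM in PAR. SRC3 lay within the range of FRC1 and below PAR. Its log2 fold change in SRC3 against PAR was -0.18 and did not pass (95% interval -0.35 to -0.00; edgeR adjusted p = 0.101). FRC1 against PAR was called at -0.22 (SE 0.08; edgeR adjusted p = 0.0496), and this call was lost with library sizes alone (0.0633), without the filter (0.0502), under DESeq2 (0.0935) and without SRC3 replicate 1 (0.0587), FRC1 replicate 2 (0.189), FRC1 replicate 3 (0.184), PAR replicate 1 (0.125), PAR replicate 2 (0.0723) or PAR replicate 3 (0.114), ranging over 0.00474 to 0.189 across 17 alternatives. The ratio of Sgce to Peg10 reads was 0.282 ± 0.00989 in SRC3, 0.405 ± 0.0251 in FRC1 and 0.369 ± 0.0192 in PAR (SD, n = 3 each). SRC3 lay below both other groups in every library.

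Ppp1r9a, a gene of the same cluster that is maternally expressed in some tissues, encodes neurabin, an actin-binding partner of protein phosphatase 1 (ENSMUSG00000032827, chromosome 6, 4902917 to 5165661, plus strand). It had 11.6, 14.7 and 15.6 CPM in SRC3, 4.54, 5.24 and 4.77 CPM in FRC1, and 4.48, 5.51 and 6.32 CPM in PAR. SRC3 lay above all other libraries, and FRC1 lay within the range of PAR. Ppp1r9a was 2.57-fold higher in SRC3 than in PAR (log2 change of 1.36, SE 0.15; edgeR adjusted p = 3.59e-07) and 2.87-fold higher than in FRC1 (1.52, SE 0.15; edgeR adjusted p = 1.18e-07). FRC1 against PAR gave -0.16 with a 95% interval of -0.52 to 0.20. Asb4, further along the cluster and known for a vascular ankyrin repeat protein, had 15 reads over SRC3, 16 over FRC1 and 5 over PAR and was not tested.

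**Figure D5:**
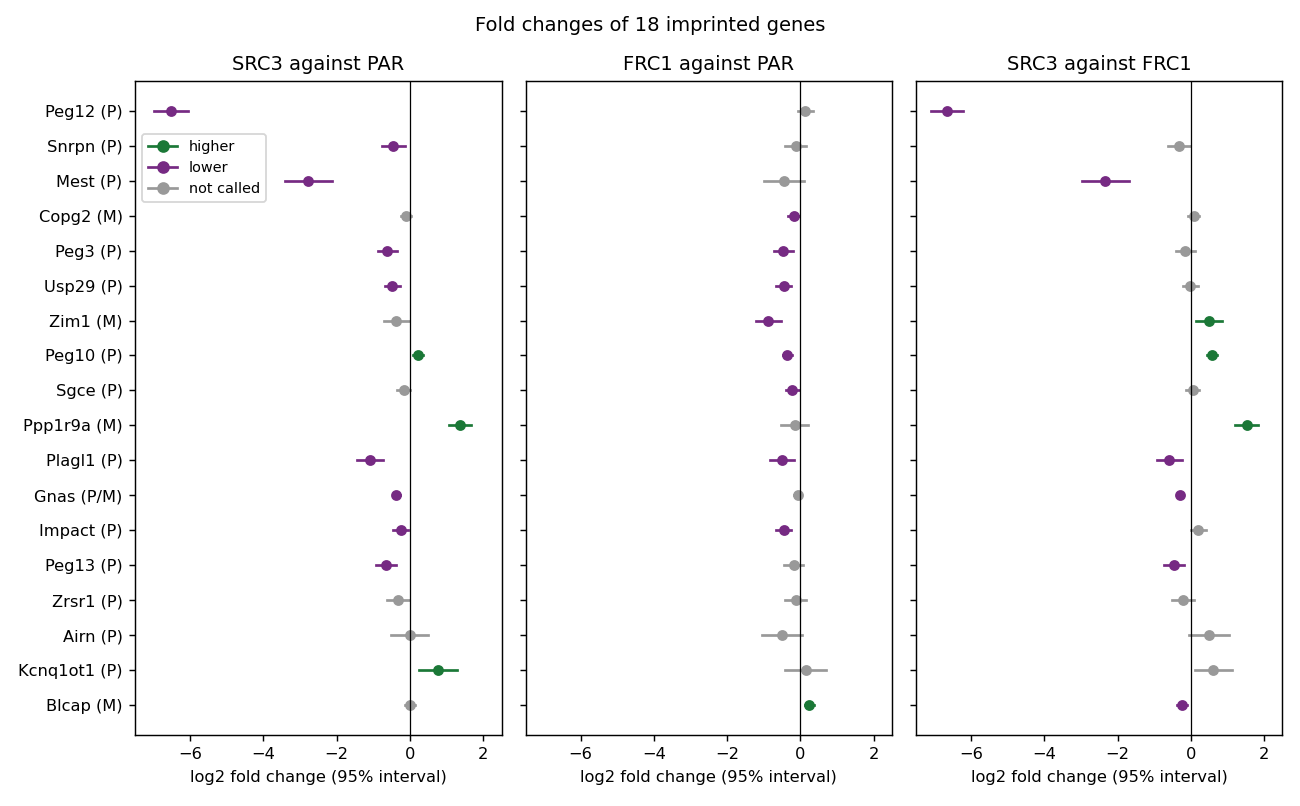
Log2 fold change with 95% interval of 18 members in SRC3 against PAR, FRC1 against PAR and SRC3 against FRC1 (edgeR, all 9 libraries); P and M give the expressed copy, and green, purple and grey mark members called higher, called lower or not called. Peg12 (-6.52) and Mest (-2.78) lie farthest left and Ppp1r9a (1.36) farthest right in SRC3 against PAR.

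Among the single loci, Plagl1 encodes a zinc finger transcription factor that slows the cell cycle and regulates other imprinted genes (ENSMUSG00000019817, chromosome 10, 13060504 to 13131694, plus strand). It had 116.6, 90.4 and 134.0 CPM in SRC3, 185.0, 171.2 and 154.8 CPM in FRC1, and 217.2, 240.9 and 268.7 CPM in PAR. The 3 groups did not overlap, with SRC3 lowest and PAR highest. SRC3 was 2.13-fold lower than PAR (log2 fold change -1.09, SE 0.15; edgeR adjusted p = 7e-04). FRC1 was lower than PAR (log2 change of -0.51, SE 0.14; edgeR adjusted p = 0.0345), and SRC3 lower than FRC1 (-0.58, SE 0.15; edgeR adjusted p = 0.019).

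Both of the smaller differences of Plagl1 were near the threshold. FRC1 against PAR was lost without SRC3 replicate 1 (edgeR adjusted p = 0.0538), FRC1 replicate 2 (0.1), FRC1 replicate 3 (0.0925), PAR replicate 2 (0.081) or PAR replicate 3 (0.0891), with no filter (0.0937) and with the replicate block (0.06), ranging over 0.00221 to 0.1 across 17 alternatives. SRC3 against FRC1 was lost with no filter (0.0581) and without SRC3 replicate 1 (0.0546), FRC1 replicate 1 (0.0658) or FRC1 replicate 2 (0.0631), ranging over 0.00206 to 0.0658.

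Gnas encodes the stimulatory G protein alpha subunit and further transcripts from imprinted promoters, which gene counts cannot separate (chromosome 2, 174284320 to 174346744, plus strand). It had 1249, 1291 and 1214 CPM in SRC3, 1556, 1561 and 1495 CPM in FRC1, and 1645, 1638 and 1583 CPM in PAR. The groups did not overlap, with SRC3 lowest. The log2 fold change was -0.37 in SRC3 against PAR (SE 0.04; edgeR adjusted p = 7.97e-07) and -0.30 against FRC1 (SE 0.04; edgeR adjusted p = 1.73e-05). FRC1 against PAR gave -0.08, which did not pass (95% interval -0.17 to 0.01).

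Impact, a regulator of the kinase GCN2, had 89.8, 81.0 and 104.7 CPM in SRC3, 71.1, 88.2 and 80.3 CPM in FRC1, and 116.2, 102.9 and 109.6 CPM in PAR. It was lower than PAR in FRC1 (log2 change of -0.46, SE 0.09; edgeR adjusted p = 0.00313) and in SRC3 (-0.26, SE 0.09; edgeR adjusted p = 0.0469). The SRC3 call was lost with RLE size factors (0.0513), library sizes alone (0.0687) or the stricter filter (0.0594), and without any 1 of 6 libraries: SRC3 replicate 1 (0.15), SRC3 replicate 2 (0.157), FRC1 replicate 3 (0.072), PAR replicate 1 (0.17), PAR replicate 2 (0.0503) or PAR replicate 3 (0.123), as edgeR adjusted p, ranging over 0.000132 to 0.17 across 17 alternatives. SRC3 against FRC1 did not pass (0.20, 95% interval -0.01 to 0.41; edgeR adjusted p = 0.129) but passed with no filter (0.00738) and without SRC3 replicate 2 (0.0199) or FRC1 replicate 2 (0.0417; 0.00738 to 0.402 in all). SRC3 replicate 3 lay within PAR.

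Peg13, a non-coding RNA within an intron of Trappc9, had 8.72, 6.78 and 7.97 CPM in SRC3, 9.46, 12.7 and 10.2 CPM in FRC1, and 11.8, 13.1 and 12.1 CPM in PAR. The SRC3 libraries were below all others. Against PAR the log2 fold change in SRC3 was -0.65 (SE 0.13; edgeR adjusted p = 0.000608), and it was -0.46 against FRC1 (SE 0.14; edgeR adjusted p = 0.0113). The second call was lost without SRC3 replicate 2 (0.054) or FRC1 replicate 2 (0.0928), ranging over 0.00396 to 0.0928 across 17 alternatives. Trappc9 itself was also lower in SRC3 than in PAR (-0.42, SE 0.08; edgeR adjusted p = 0.000389), and its unspliced RNA cannot be told apart from Peg13, which lies on the same strand.

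Zrsr1, an intronless copy of a splicing factor gene, did not pass in any comparison, with 7.12 ± 0.560 CPM in SRC3, 8.20 ± 0.955 CPM in FRC1 and 8.94 ± 1.19 CPM in PAR (SD, n = 3 each). In SRC3 against PAR its log2 fold change was -0.33 (95% interval -0.62 to -0.04; edgeR adjusted p = 0.0671), and it passed without PAR replicate 2 (0.0324; range 0.0324 to 0.234). Reads shared with its parent gene were set aside before counting, so its level is uncertain.

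Blcap, a small conserved membrane protein gene on chromosome 2, was called higher in FRC1 than in PAR, the only member so called there. It had 58.4, 53.1 and 55.0 CPM in SRC3, 61.0, 70.1 and 66.2 CPM in FRC1, and 52.2, 56.5 and 57.7 CPM in PAR. FRC1 lay above both other groups in every library. The log2 fold change was 0.25 in FRC1 against PAR (SE 0.07; edgeR adjusted p = 0.00789) and -0.25 in SRC3 against FRC1 (SE 0.07; edgeR adjusted p = 0.0063), while SRC3 against PAR gave 0.00 (95% interval -0.14 to 0.14). The FRC1 call was lost without FRC1 replicate 2 (0.0545) or PAR replicate 1 (0.0653), ranging over 0.00215 to 0.0653 across 17 alternatives. Nnat, a paternally expressed neuronal proteolipid gene that lies inside Blcap, had 0 reads in all libraries.

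In the Kcnq1 cluster on chromosome 7, the paternally expressed non-coding RNA Kcnq1ot1, which silences its neighbours in cis, had 3.30, 4.85 and 3.72 CPM in SRC3, 1.67, 2.87 and 3.13 CPM in FRC1, and 1.61, 2.68 and 2.70 CPM in PAR. SRC3 lay above all other libraries. Its log2 fold change was 0.77 in SRC3 against PAR (SE 0.25; edgeR adjusted p = 0.0201), and this call was lost without SRC3 replicate 2 (0.0879) or PAR replicate 1 (0.118), ranging over 0.00419 to 0.118 across 16 alternatives. SRC3 against FRC1 gave 0.62 (SE 0.25) and did not pass (edgeR adjusted p = 0.0576), but it passed with no filter (0.0275), without FRC1 replicate 3 (0.0433) or PAR replicate 1 (0.0492) and with the replicate block (0.0205), ranging over 0.0205 to 0.232. Kcnq1ot1 lies antisense within Kcnq1, which had 0 reads in all libraries.

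Cdkn1c, a maternally expressed inhibitor of cyclin-dependent kinases in the same cluster, had 25 reads over SRC3, 24 over FRC1 and 34 over PAR. It did not pass in any comparison, and in SRC3 against PAR its log2 fold change was -0.38 with a 95% interval of -1.27 to 0.51. Slc22a18, a transporter gene, had 6, 0 and 3 reads in the same groups, Phlda2, a restrainer of placental growth, 1, 3 and 0, and Ascl2, a placental transcription factor gene, 0 in all. These 3 maternally expressed genes were not tested.

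Airn, the paternally expressed non-coding RNA antisense to Igf2r, had 2.34, 2.16 and 2.13 CPM in SRC3, 2.12, 1.40 and 1.21 CPM in FRC1, and 1.89, 2.601 and 2.20 CPM in PAR. It did not pass in any comparison. In FRC1 against PAR its log2 fold change was -0.50 (95% interval -1.04 to 0.03; edgeR adjusted p = 0.155). Without FRC1 replicate 1, the highest FRC1 library, Airn was called lower in FRC1 than in PAR (0.049; range 0.049 to 0.428 across 16 alternatives) and higher in SRC3 than in FRC1 (0.0498; range 0.0498 to 0.4). Igf2r, the maternally expressed receptor gene on the other strand, was lower than PAR in SRC3 (-0.40, SE 0.08; edgeR adjusted p = 0.000828) and in FRC1 (-0.53, SE 0.08; edgeR adjusted p = 0.000146). The kit keeps strand, but the strand setting of the counting is not stated, so reads of Airn and of Igf2r introns may not be separated.

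The Dlk1-Meg3 cluster on chromosome 12, whose maternally expressed RNAs Meg3, Rian and Mirg carry many microRNAs and small nucleolar RNAs, was not detectable at this depth. Dlk1, which encodes a Notch-like membrane protein, Rtl1, a retrotransposon-derived gene, and Meg3 had 0 reads in all 9 libraries. That allows up to 3 counts, or 0.21 to 0.231 CPM, in a library. Rian had 2 reads, both in SRC3 replicate 3, and Mirg 1 read, in SRC3 replicate 2. Members elsewhere with few reads were Grb10, an adaptor of insulin and growth factor receptors, with 2 reads in SRC3, 3 in FRC1 and 2 in PAR, Zdbf2 with 0, 1 and 4, Nap1l5 with 0, 0 and 3, and Rasgrf1, a Ras exchange factor gene, with 2, 1 and 0. In all, 15 members were not tested, of which 6 had no read in any library.

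Of 40 other imprinted genes listed for comparison, 24 were tested: 15 were lower and 4 higher in SRC3 than in PAR, 8 and 4 in FRC1 than in PAR, and 9 and 2 in SRC3 than in FRC1. The shares of all tested genes were 20.2% and 17.8%, 14.7% and 13.6%, and 18% and 15.5% in the same order. The median log2 fold change of the 24 was -0.29 in SRC3 against PAR, -0.12 in FRC1 against PAR and -0.05 in SRC3 against FRC1. Whether any of the listed genes was imprinted in these cells was not measured. Whether they differ from other genes was not tested. Phactr2, an actin and phosphatase regulator gene that starts 413908 bases from Plagl1, had 0 reads in SRC3, against 253 in the FRC1 libraries and 284 in the PAR libraries. With the same floor its level in SRC3 was at least 90.9-fold below PAR. H19 stood at 150.5 CPM in SRC3, 709.5 CPM in FRC1 and 1054 CPM in PAR, and was called lower in SRC3 than in PAR (edgeR adjusted p = 2.46e-07), as was Gatm, an enzyme gene of creatine synthesis, at 13.1, 12.8 and 23.0 CPM (4.06e-06). Both H19 (0.00625) and Gatm (7.38e-06) were also called lower in FRC1 than in PAR, as edgeR adjusted p, and so was Cobl, an actin nucleator gene beside Grb10 (-0.61, SE 0.10; 0.000299). Cobl was at 42.3 CPM in SRC3, 27.3 CPM in FRC1 and 41.5 CPM in PAR. It was not called in SRC3 against PAR (0.03, SE 0.10; edgeR adjusted p = 0.854) and was higher in SRC3 than in FRC1 (0.64, SE 0.10; 0.000112).

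Of 25 genes of imprint maintenance and chromatin, among them the Tet genes, which act to remove DNA methylation, 23 were tested. In SRC3 10 were higher and 3 lower than in PAR, and 6 and 3 than in FRC1. In FRC1 5 were higher and 2 lower than in PAR. Of all tested genes 17.8% were higher and 20.2% lower in SRC3 than in PAR, and 15.5% and 18% than in FRC1. For FRC1 against PAR these shares were 13.6% and 14.7%. Zfp57, which protects imprints, was at 91.1 CPM in SRC3, 108.2 CPM in FRC1 and 76.8 CPM in PAR, and was called higher in FRC1 than in PAR (log2 change of 0.50, SE 0.07; edgeR adjusted p = 2.77e-05) and in SRC3 than in PAR (0.25, SE 0.07; edgeR adjusted p = 0.00812). Between the reserve populations, Zfp57 was called lower in SRC3 than in FRC1 (-0.25, SE 0.07; edgeR adjusted p = 0.00784). Hells, a chromatin remodeller needed for DNA methylation, was at 129.7 CPM in SRC3 and 99.0 CPM in PAR (0.39, SE 0.06; edgeR adjusted p = 1.57e-05). Dnmt3a, a DNA methyltransferase gene, was at 13.5 CPM in SRC3, 22.7 CPM in FRC1 and 18.4 CPM in PAR, lower in SRC3 than in FRC1 (-0.75, SE 0.11; edgeR adjusted p = 3.09e-05) and than in PAR (-0.45, SE 0.12; edgeR adjusted p = 0.00469), and higher in FRC1 than in PAR (0.30, SE 0.11; edgeR adjusted p = 0.0428). Tet2 was at 17.2 CPM in SRC3, 11.2 CPM in FRC1 and 13.3 CPM in PAR. It was called higher in SRC3 than in FRC1 (0.62, SE 0.10, edgeR adjusted p = 8.02e-05) and than in PAR (0.37, SE 0.10, edgeR adjusted p = 0.00585). Tet3 was called higher in SRC3 than in FRC1 (0.32, SE 0.06, edgeR adjusted p = 0.000146). Atrx, at 156.7 CPM in FRC1 and 194.1 CPM in PAR, was called lower in FRC1 than in PAR (-0.31, SE 0.08, edgeR adjusted p = 0.0105). The median log2 fold change of the 23 was 0.08 in SRC3 against PAR, 0.04 in FRC1 against PAR and 0.08 in SRC3 against FRC1.

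Within 250000 bases of the starts of the 18 members at 1 CPM or more, 35 non-member genes were tested. Of these, 6 were lower and 10 higher in SRC3 than in PAR, 5 and 5 in FRC1 than in PAR, and 3 and 7 in SRC3 than in FRC1. The shares of all tested genes were 20.2% and 17.8%, 14.7% and 13.6%, and 18% and 15.5% in the same order. The 35 had a median log2 fold change of 0.03, 0.03 and 0.08 in these comparisons. Igf2r, Cd81, Mkrn3 and other imprinted genes are among the 35.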

How the data were processed

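Polyadenylated RNA of 9 samples was prepared with a stranded kit and sequenced as single reads, per the labels' protocols. For each library the authors deposited counts of reads by gene, without normalization. HISAT2 2.1.0, HTSeq 0.9.1, DESeq2 and build GRCm38 are named in the submitters' processing notes; settings and strand mode: not given in the sources used here. The 5 closing lines of each file that name no gene stayed out of all totals: 5.92 to 7.92% of uniquely aligned reads were assigned to no gene and 1.18 to 1.21% matched several genes. Reads with several alignments were tallied apart.

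Genes were kept with filterByExpr (10 counts, 15 in total, scaled to depth), normalized by TMM and fitted in 1 quasi-likelihood model over 9 libraries (edgeR 4.0.16, R 4.3.3, 6 residual degrees of freedom, two-sided tests, Benjamini-Hochberg adjustment over 12540 genes). Alternatives used DESeq2 1.42.0 and limma 3.58.1. Coordinates and exon lengths came from GENCODE M21 on GRCm38, which matched 47224 of 47729 identifiers. The fit was tested on simulated data. Replicates differed beyond counting noise (chi-square per degree of freedom 1.81 to 7.47). Floors cover counting error only.

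All 35 members are accounted for; values by library are given for those at 1 CPM or more in a group. Of the other lists, cell type markers apart, genes named are among the 3 largest called changes at 5 CPM or more in a comparison. Zfp57, Dnmt3a and Cobl are given also in the others. Mkrn3, Trappc9, Cep41 and Tmem209 were named as neighbours after their values were seen. Members and lists were chosen with earlier results of these data known.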

Additional observations from a re-analysis of the deposited data

How the results depend on the processing

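Under 17 alternatives, 19 of the 30 calls on the 18 members at 1 CPM or more kept their direction and their side of the threshold, among them every call on Peg12, Mest, Ppp1r9a, Peg10, Gnas and Usp29. The number of members higher in FRC1 than in PAR was 0 to 1 over the left-out libraries, and that of members lower 4 to 11. Higher members in SRC3 against FRC1 numbered 5 without the filter, which added Kcnq1ot1 and Impact, and 3 with it. Values that changed sign were all uncalled and near 0. Airn in SRC3 against PAR gave 0.003 with library sizes alone, 0.005 with limma voom, and -0.111 to 0.116 over left-out libraries. Blcap in SRC3 against PAR gave -0.003 without the filter and -0.037 to 0.039 over left-out libraries. Over left-out libraries Kcnq1ot1 in FRC1 against PAR gave -0.068 to 0.372, Usp29 in SRC3 against FRC1 -0.118 to 0.065 and Sgce there 0.00 to 0.149. The cause of these changes was not tested, apart from the fewer samples of a left-out library. Same-numbered replicates correlated by -0.07 to 0.12 in their deviations from the group means, and differently numbered ones by -0.089 to 0.122. These values show no pairing by number, but with 3 libraries per group they cannot exclude it. With the replicate block 11 members were lower in SRC3 than in PAR, 8 in FRC1 than in PAR and 7 in SRC3 than in FRC1. Members under about 1 CPM are limited by depth.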
